A study of Drosophila melanogaster with 4 samples.

Results

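Chaperones are proteins that help other proteins to fold, keep damaged ones from clumping and pass them on for refolding or destruction. In flies exposed to heat or to protein-damaging chemicals, the transcription factor Hsf binds heat shock elements and switches on a set of inducible chaperone genes within minutes, while related constitutive chaperones are made at all times. The values described here are those of 9 such genes. The stress-induced ones are Hsp26, Hsp27 and l(2)efl (small heat shock proteins), Hsp68 (an inducible Hsp70-type chaperone) and DnaJ-1 (an Hsp40, which delivers clients to Hsp70). The constitutive ones are Hsc70-3 (the Hsp70 of the endoplasmic reticulum, known as BiP), Hsc70-4 (the main cytosolic Hsp70 cognate) and Hsp60A (the mitochondrial chaperonin). The last is Hsf itself.

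The genes were chosen by name: every probe set whose only gene symbol in the platform annotation was one of the 9 was taken. This gave 11 probe sets for 9 genes, out of 18952 probe sets on the array, of which 13646 had 1 symbol and stood for 11981 genes. A gene with several probe sets was represented by the one with the highest mean over the arrays. All 9 genes were detected, which here means that the higher of the 2 values compared reached the median of its array, array controls left out. Of the member probe sets, 4 carry the suffix _s_at, given by Affymetrix to probe sets matching several transcripts (those of DnaJ-1, Hsc70-3, Hsc70-4 and Hsp60A). A further probe set of l(2)efl, not the one that represents it, carries _a_at. Whether any of these also match transcripts of other genes was not tested.

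The 4 arrays came from wildtype Canton-S males used as young adults of 1 to 2 days. The control flies were not exposed, and the others were held for 24 h in the vapour of benzene, toluene or formaldehyde, in vials of standard medium closed with mesh. Each group had 1 array, from whole-animal total RNA as far as the labels say, so a group is a single RNA preparation and no value has a replicate error. The sources used here give neither the vapour concentrations nor the number of flies pooled. The series was a screen for transcripts that differ after exposure. The deposited values are log2 probe set values, and a difference is the exposed value minus the control value on that scale. No test was possible, and the words higher and lower compare 1 array with another.

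As a check of the labels, the genes of the yolk proteins, which females make, were read. Yp1 and Yp2 lay below the array median on all 4 arrays, whereas Yp3 lay above it, at 7.11 to 7.21. Of the testis marker genes, 16 of 20 were detected. The array medians ran from 6.42 to 6.46. The middle 90% of detected genes lay between -0.31 and 0.25 for benzene minus control, between -0.23 and 0.30 for toluene minus control and between -0.38 and 0.38 for formaldehyde minus control. All 3 differences use the same control array, so a deviation of that array enters each of them.

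None of the 9 chaperone genes differed by 2-fold between any pair of arrays. Among all detected genes, the share at least 2-fold apart was 0.430% for benzene minus control (35 of 8134), 0.283% for toluene minus control (23 of 8140) and 1.11% for formaldehyde minus control (91 of 8165). So few genes passed 2-fold in all that 0 of 9 lies near this background and says little about the chaperone genes. At a smaller size of 0.25 log2 units (1.19-fold), Hsc70-3 alone passed, on the benzene and formaldehyde arrays. That is 1 of 9 genes, where 16.0% of detected genes passed for benzene and 28.4% for formaldehyde. For toluene 0 of 9 members passed, against 10.9% of detected genes. The widest range over the 4 arrays among the members was 0.36 log2 units (1.28-fold, Hsc70-3) and the narrowest 0.10 (1.07-fold, Hsc70-4).

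**Figure D1:**
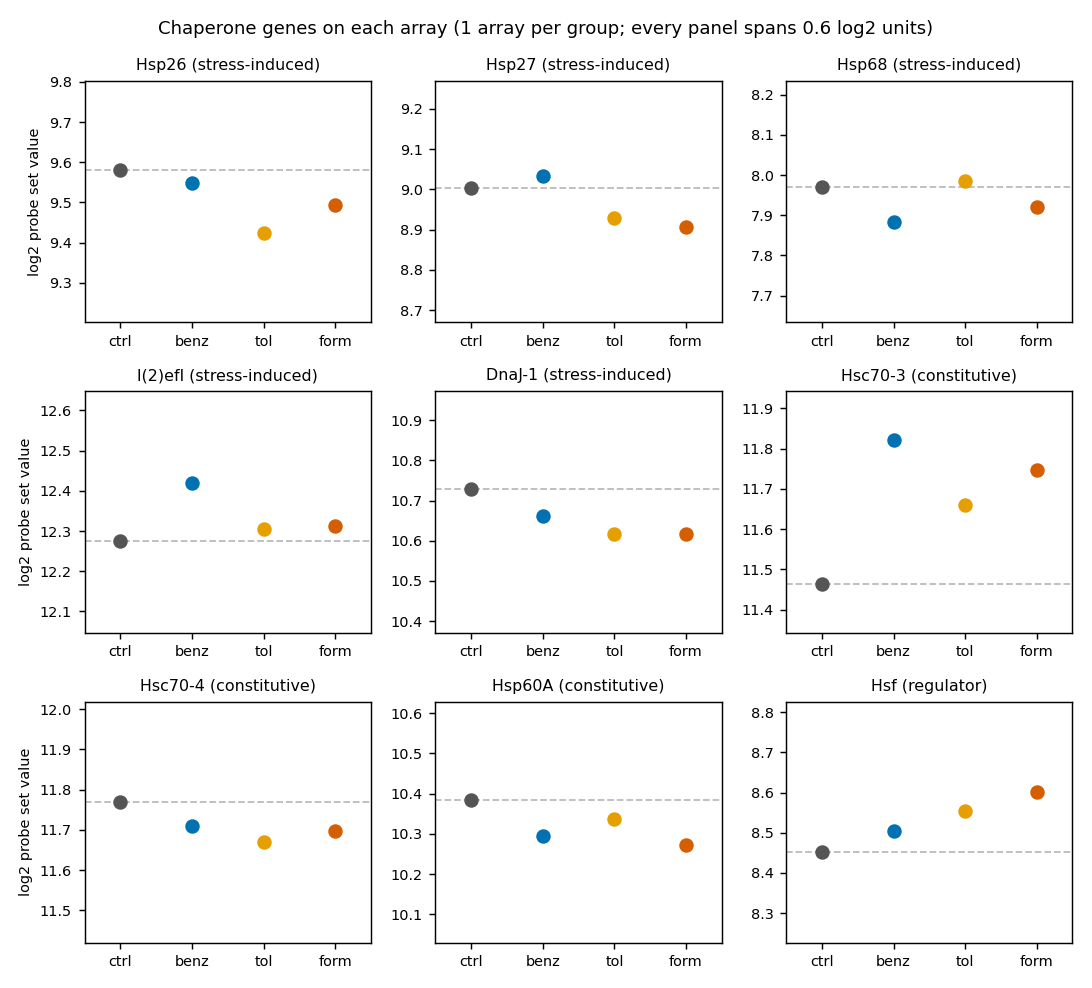
Deposited log2 probe set value (vertical axis) of each of the 9 genes on the control (ctrl), benzene (benz), toluene (tol) and formaldehyde (form) arrays; each point is 1 array, the dashed line is the control value, and each panel has its own axis with the same span. Hsc70-3 stands lowest on the control array and has the widest range, 0.36 log2 units.

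The small heat shock proteins are holdases that bind unfolding clients without using ATP. Hsp26 had log2 values of 9.58 (control), 9.55 (benzene), 9.42 (toluene) and 9.49 (formaldehyde). The control array was the highest and the toluene array the lowest, with a difference of -0.16 for toluene. For benzene the difference was -0.03, and it turned to 0.02 under quantile scaling. Among all detected genes, 29.1% differed at least as far from 0 as Hsp26 did for toluene.

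Hsp27, a small heat shock protein found in the nucleus, had values of 9.003, 9.03, 8.93 and 8.91 in the same order. Benzene was the highest of the 4 arrays and formaldehyde the lowest. Its differences from control were 0.03 (benzene), -0.07 (toluene) and -0.10 (formaldehyde), and 62.5% of detected genes were at least as far from 0 as Hsp27 for formaldehyde.

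Hsp26 and Hsp27 lie in 1 cluster of small heat shock genes on chromosome arm 3L, with 2 protein-coding genes between them (Hsp67Ba and Hsp23), neither of which has a single-symbol probe set. CG4461, the neighbour of Hsp26 on its other side and itself listed as a small heat shock gene, could be measured. It had log2 differences of 0.09 (benzene), -0.05 (toluene) and 0.03 (formaldehyde).

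The gene l(2)efl encodes a small heat shock protein of the alpha-crystallin type. Its representative probe set read 12.28 (control), 12.42 (benzene), 12.30 (toluene) and 12.31 (formaldehyde). Benzene stood highest, at a difference of 0.14, and toluene and formaldehyde lay within 0.04 of the control. A second probe set of the gene read 10.85, 11.03, 10.93 and 10.93, with differences of 0.18, 0.08 and 0.09. Both placed the control array lowest and the benzene array highest. The third probe set read 3.66 to 4.05, far below the array medians, and its order was different, with toluene highest and formaldehyde lowest.

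Hsp68 is the inducible Hsp70-type gene with a probe set of its own; the Hsp70 genes proper have none with a single symbol and are not reported here. Hsp68 read 7.97 (control), 7.88 (benzene), 7.98 (toluene) and 7.92 (formaldehyde), so its 4 values lay within 0.10 log2 units. Benzene was the lowest array. For formaldehyde, 79.5% of detected genes differed from control at least as far as Hsp68.

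DnaJ-1, the Hsp40 partner of Hsp70, read 10.73 (control), 10.66 (benzene), 10.62 (toluene) and 10.62 (formaldehyde). The control array was the highest, and toluene and formaldehyde were alike. The differences of -0.07, -0.11 and -0.11 were reached or passed by 63.8%, 45.5% and 58.5% of detected genes.

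Hsc70-3, the BiP of the fly, binds nascent chains that enter the endoplasmic reticulum. It read 11.46 on the control array, 11.82 with benzene, 11.66 with toluene and 11.75 with formaldehyde. All 3 exposed arrays were above the control, benzene the most, by 0.36 (1.28-fold), then formaldehyde by 0.28 (1.22-fold) and toluene by 0.20 (1.15-fold). Differences at least as far from 0 were found in 4.66% of detected genes for benzene, 18.8% for toluene and 23.1% for formaldehyde. For benzene it lay outside the middle 90% of detected genes, and it was the only one of the 9 to do so in any of the 3 comparisons with control. That band leaves out the tails of all detected genes by definition, so a single gene of the 9 outside it is near background.

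Hsc70-4, the cytosolic cognate that also strips clathrin from vesicles, read 11.77 (control), 11.71 (benzene), 11.67 (toluene) and 11.70 (formaldehyde). The control array was the highest, and the differences of -0.06, -0.10 and -0.07 were passed by at least 50.4% of detected genes. Hsp60A, which folds imported proteins inside mitochondria, read 10.38, 10.29, 10.34 and 10.27 in the same order. Its control value was also the highest of the 4, with differences of -0.09, -0.05 and -0.11.

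Hsf, the regulator, read 8.45 (control), 8.50 (benzene), 8.55 (toluene) and 8.60 (formaldehyde). The formaldehyde array was the highest, at a difference of 0.15 (1.11-fold), and the control array the lowest. Of detected genes, 70.1% (benzene), 49.4% (toluene) and 48.0% (formaldehyde) lay at least as far from 0 as Hsf. Hsf protein is known to be switched on by trimer formation and DNA binding, which an mRNA array does not measure.

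**Figure D2:**
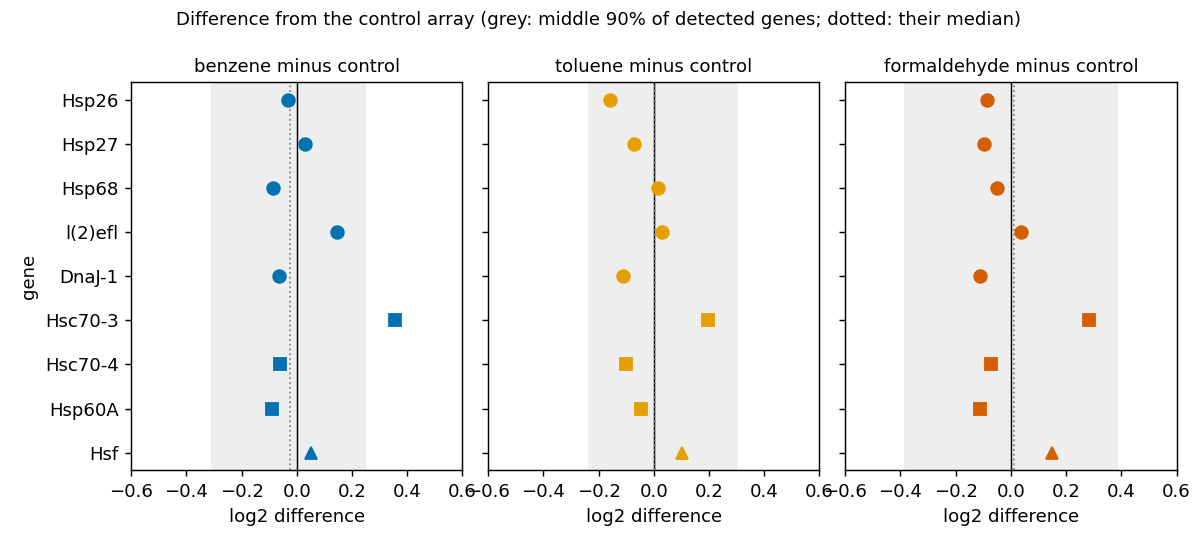
Log2 difference from the control array (horizontal axis) for each of the 9 genes, with 1 panel per exposure; circles are stress-induced, squares constitutive and the triangle is Hsf. The grey band is the middle 90% of detected genes and the dotted line their median. Hsc70-3 with benzene, at 0.36, is the only point outside a band.

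Stress-induced genes were next set against constitutive ones. The classes were not set from levels on the control array. There l(2)efl read 12.28, above Hsc70-4 (11.77), Hsc70-3 (11.46) and Hsp60A (10.38), and DnaJ-1 (10.73) also read above Hsp60A. For benzene, the median log2 difference was -0.03 over the 5 stress-induced genes (2 above 0, 3 below) and -0.06 over the 3 constitutive genes (1 above, 2 below). The median of all detected genes was -0.02, with 42.9% above 0. For toluene, the medians were -0.07 (2 above, 3 below) and -0.05 (1 above, 2 below), against 0.01 for all detected genes, of which 51.5% were above 0. For formaldehyde, they were -0.09 (1 above, 4 below) and -0.07 (1 above, 2 below), against 0.01 and 52.3% above 0.

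The class medians thus differed by 0.03, -0.03 and -0.02, stress-induced minus constitutive, for benzene, toluene and formaldehyde. Under quantile scaling the formaldehyde difference turned to 0.03. The stress-induced median for benzene turned to 0.02 under quantile scaling and to 0.0011 with each array centred on its median. In each comparison the constitutive median was set by Hsc70-4 or Hsp60A, while Hsc70-3 lay apart from both. Without Hsc70-4 the constitutive median became 0.13 (benzene), 0.07 (toluene) and 0.09 (formaldehyde), and without Hsp60A it became 0.15 for benzene and 0.11 for formaldehyde. A median of 3 genes therefore depends on which gene is left out. Averaged over its genes, the stress-induced class read 9.91, 9.91, 9.85 and 9.85 on the control, benzene, toluene and formaldehyde arrays. The constitutive class averaged 11.21, 11.27, 11.22 and 11.24 on the same arrays. Its mean was thus above the control on every exposed array while its median difference was below 0, with Hsc70-3 above the control and the other two genes below it.

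The exposures were also set against each other at their common 24 h, in 3 pairs. Toluene is benzene with a methyl group added. With toluene, Hsc70-3 was lower than with benzene by a log2 difference of -0.16, Hsp26 by -0.13, l(2)efl by -0.11 and Hsp27 by -0.10, whereas Hsp68 was higher by 0.10. DnaJ-1 (-0.05), Hsc70-4 (-0.04), Hsp60A (0.04) and Hsf (0.05) differed by less. For Hsc70-3, 19.6% of detected genes were at least as far apart. Past 2-fold were 0 of 9 members and 0.443% of detected genes, and past 0.25 log2 units 0 of 9 and 7.51%. The median of all detected genes in this pair was 0.04.

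Between formaldehyde and benzene, 0 of 9 members passed 2-fold (1.01% of detected genes) and 0 passed 0.25 log2 units (11.9%). The widest differences were -0.13 for Hsp27, -0.11 for l(2)efl and 0.10 for Hsf. Between formaldehyde and toluene, 0 of 9 passed 2-fold (0.859%) and 0 passed 0.25 (13.2%), and the widest was 0.09, for Hsc70-3. With 1 array per vapour no interval of these differences can be given, so the data do not show that the vapours act alike on these genes.

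The same arrays held far larger differences in some other stress-response genes. TotC and Fst come from a list of 6 genes, 3 of them measured, chosen with earlier results of these data known. Their size is therefore no test of how the chaperone genes behaved. TotC, for a secreted stress peptide, was 2.26 (benzene), 2.17 (toluene) and 2.07 (formaldehyde) log2 units above the control. Fst (Frost), known for its induction on recovery from cold, was 4.95 above it with formaldehyde, where its control value of 5.97 lay below the array median.

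To place the 9 genes among folding genes, wider lists were described in the same way. These lists hold some of the 9 genes, so they are not independent of the values above. The small heat shock list holds Hsp26, Hsp27 and l(2)efl, and the Hsp70 list holds Hsp68, Hsc70-3 and Hsc70-4. Hsc70-3 is also on the endoplasmic reticulum list, DnaJ-1 on the J-domain list and Hsp60A on the mitochondrial list. Their counts above and below 0 are to be read beside those of all detected genes. Of all detected genes, 42.9% (benzene), 51.5% (toluene) and 52.3% (formaldehyde) were above 0, and 57.1%, 48.4% and 47.7% below. Of 14 listed Hsp70 and Hsp110 genes, 8 were measured and detected, and 0 passed 2-fold in any comparison with control. That is near the share of all detected genes, which was 1.11% at most. Past 0.25 log2 units were 3 (benzene), 0 (toluene) and 2 (formaldehyde) of the 8, beside 16.0%, 10.9% and 28.4% of detected genes. Hsc70-3 itself is among the 3 and among the 2. The list medians were 0.02 (benzene), 0.03 (toluene, -0.0044 under quantile scaling) and 0.04 (formaldehyde). Beside Hsc70-3, Grp170, a large Hsp70 relative of the endoplasmic reticulum, was at 0.28, 0.08 and 0.03. Hsc70-2 lay the other way, at -0.39, -0.21 and -0.38. Its values were 9.72 on the control array and 9.33, 9.51 and 9.34 on the benzene, toluene and formaldehyde arrays, so the control was the highest.

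Of 13 listed small heat shock genes 6 were measured. Their median was 0.06 for benzene (4 of 6 above 0) and -0.06 for toluene (2 of 6). For formaldehyde it was -0.09, with 2 of 5 above 0. CG7409 gave the steadiest value, at -0.13, -0.12 and -0.13. In the list of Hsf and stress targets, which shares Hsf and all 5 stress-induced genes with the members, 10 genes were detected and the medians were 0.04, 0.02 and 0.0042. The last turned to -0.01 under quantile scaling. Of its other genes, Gadd45, for a growth arrest and DNA damage protein, was at 0.10, 0.32 and 0.58, puc, a JNK phosphatase gene, at 0.07, 0.14 and 0.34, and stv, a BAG-type co-chaperone gene, at 0.08, 0.14 and 0.19. The autophagy receptor gene ref(2)P was at -0.12, -0.21 and -0.03.

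Genes of the endoplasmic reticulum were described as a list of 29, of which 23 were detected. Of these, 16 were above 0 for benzene (median 0.05), 14 for toluene (0.03) and 16 for formaldehyde (0.11). Of the 23 genes, 5 passed 0.25 log2 units with benzene, 0 with toluene and 5 with formaldehyde, beside 16.0%, 10.9% and 28.4% of all detected genes, and 0 passed 2-fold. Hsc70-3 itself is among the 5 with benzene and among the 5 with formaldehyde. TRAM, a partner of the translocation channel, was at 0.37, 0.04 and 0.26. CaBP1, a protein disulfide isomerase, was at 0.28, 0.16 and 0.22, and P58IPK, whose mammalian counterpart is a J-domain partner of BiP, at 0.23, 0.03 and 0.29. Benzene was the highest array for TRAM and CaBP1, as for Hsc70-3, and formaldehyde for P58IPK. These 3 were named for lying among the farthest from control in the list, so they do not stand for it.

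Other genes of the same list spread to both sides of 0. Gp93, the Hsp90 of the endoplasmic reticulum, was at 0.25, -0.03 and 0.18. Sil1, known in mammals as a nucleotide exchange factor of BiP, was at 0.13 and -0.01 for benzene and toluene, and at 0.57 (1.49-fold) for formaldehyde. The oxidase gene Ero1L was at -0.12, -0.19 and -0.18. Fat body markers, of a strongly secreting tissue, also differed between the arrays. All 6 measured markers were detected, with mean log2 values of 9.48 (control), 9.93 (benzene), 11.21 (toluene) and 10.40 (formaldehyde). The markers did not move together. Above the control were 5 with benzene, 6 with toluene and 4 with formaldehyde, where fit (-0.35) and Lsd-1 (-0.13) were below it. The toluene array was the highest for these markers, while Hsc70-3 was highest on the benzene array. The part of fat body RNA in the Hsc70-3 values was not tested.

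**Figure D3:**
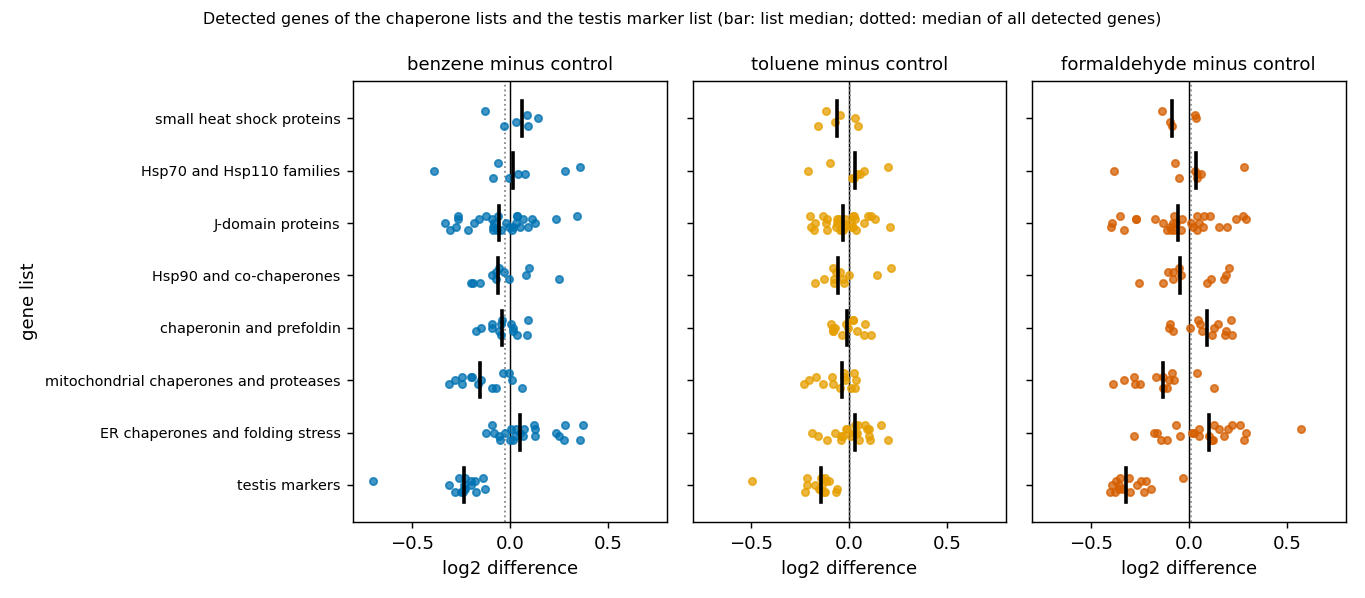
Log2 difference from the control array (horizontal axis) of each detected gene of 7 chaperone lists and of the testis marker list, with 1 panel per exposure; points are genes, black bars list medians and the dotted line the median of all detected genes. The testis markers lie below 0 in all 3 panels, and the mitochondrial list has medians of -0.15, -0.04 and -0.13.

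Mitochondrial chaperone and protease genes gave the lowest median of the 7 plotted chaperone lists for benzene and for formaldehyde, though not for toluene. Of 14 detected genes, 12 were below 0 for benzene (median -0.15), 10 for toluene (-0.04) and 12 for formaldehyde (-0.13). Past 0.25 log2 units were 2 (benzene), 0 (toluene) and 4 (formaldehyde) of the 14. Among all detected genes the shares were 16.0%, 10.9% and 28.4%, so the benzene and formaldehyde counts lie near this background. Hsp60A itself, at -0.09, -0.05 and -0.11, was not among the farthest. Its paralogs Hsp60B (-0.31, -0.23 and -0.39), known to be needed for spermatid individualization, and Hsp60C (-0.28, -0.20 and -0.33) were. Hsp60D was at -0.19, -0.09 and -0.28, and Tom70, a receptor for imported proteins, at -0.25, -0.17 and -0.17.

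Testis markers lay on the same side of 0. All 16 detected testis markers were below 0 in each comparison, with medians of -0.23 (benzene), -0.14 (toluene) and -0.32 (formaldehyde). Their mean log2 value was 10.82 on the control array and 10.57, 10.65 and 10.53 on the exposed ones. The 4 other markers (twe, aly, can and CycB) lay below the array median. In whole-animal RNA, fewer cells of a type and less RNA per cell cannot be told apart, and the part of testis RNA in the chaperone values was not tested. Accessory gland markers also ran lower, with 12 of 13 below 0 for benzene, 11 for toluene and 12 for formaldehyde (medians -0.08, -0.11 and -0.18). Muscle markers had medians of 0.04, 0.01 and 0.07 and neuron markers of -0.11, -0.19 and 0.04.

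A list of chaperone copies set down as testis-type also took in the general subunit gene CCT6 through an old name. It shares Hsp60B, Hsp60C, Hsp60D and CG9920 with the mitochondrial list, so these lists are not independent. With formaldehyde, these 4 were the mitochondrial-list genes past 0.25 log2 units. The testis-type list had medians of -0.18, -0.07 and -0.27. Of its 8 detected genes, 7, 5 and 6 were below 0. In this list CG9920 was at -0.25, -0.14 and -0.27, whereas CG7130 was at -0.09, 0.21 and -0.10. Not all genes of the list are certain to be testis-type.

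J-domain genes, the Hsp40 class to which DnaJ-1 belongs, spread to both sides of 0. Of 30 detected genes 18 were below 0 for benzene, 18 for toluene and 17 for formaldehyde, with medians of -0.05, -0.03 and -0.05. The highest with benzene was shv, at 0.34, 0.11 and 0.28. The lowest 4 with formaldehyde were CG8476 (-0.33, -0.18 and -0.39), CG7387 (-0.27, -0.19 and -0.40), CG30156 (-0.31, -0.18 and -0.33) and CG12020 (-0.27, -0.14 and -0.35). With toluene the lowest was CG14650, at -0.12, -0.20 and -0.07. DnaJ-1 was at -0.07, -0.11 and -0.11, as given above.

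Hsp90-type and Hsp90 co-chaperone genes had medians of -0.06, -0.06 and -0.04 over 12 detected genes, of which 9, 10 and 7 were below 0. Hsp83, also on this list, had no single-symbol probe set. The myosin chaperone gene unc-45 was at 0.10, 0.21 and 0.20, nudC at -0.19, -0.18 and -0.25, and Trap1, the mitochondrial Hsp90, at -0.20, -0.03 and -0.13.

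Cytosolic chaperonin and prefoldin genes, whose products fold actin and tubulin, had their highest median difference with formaldehyde, by small amounts. Their medians over 14 genes were -0.04 for benzene, -0.01 for toluene and 0.09 for formaldehyde, with 6, 6 and 11 above 0. For formaldehyde, 52.3% of all detected genes were above 0. The 14 formaldehyde differences, from -0.10 to 0.22, lay inside the middle 90% of detected genes (-0.38 to 0.38). Past 0.25 log2 units with formaldehyde were 0 of the 14, beside 28.4% of detected genes. Without replicate arrays, whether formaldehyde differs from the other vapours in these genes was not tested. With formaldehyde all 8 CCT subunit genes were above 0, from 0.01 to 0.22 (7 of 8 under quantile scaling), a subset picked after its values were seen. CCT5 was at 0.09, 0.02 and 0.22, CCT2 at 0.01, 0.04 and 0.19, and the prefoldin gene Pfdn2 at 0.09, 0.11 and 0.22. Pfdn4 was at -0.17, -0.09 and -0.08. For the toluene median, centring each array turned the value to 0.0047.

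**Figure D4:**
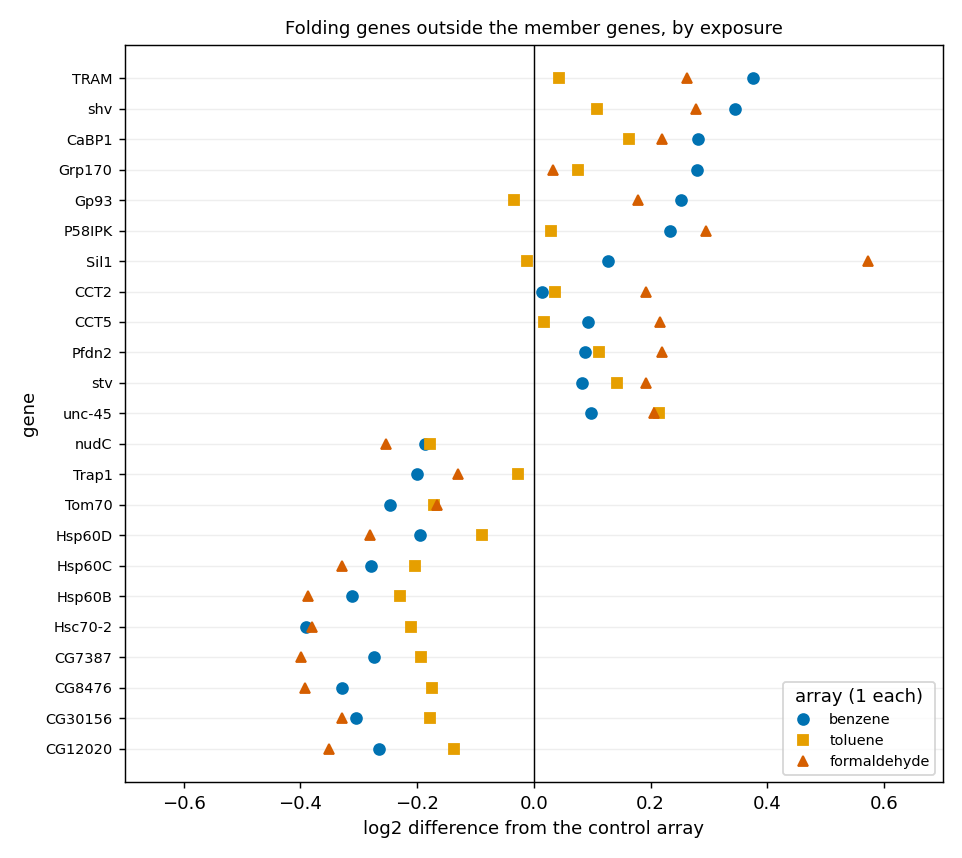
Log2 difference from the control array (horizontal axis) of 23 folding genes outside the 9, for benzene (circles), toluene (squares) and formaldehyde (triangles), 1 array each. The 23 were picked by hand from the list genes farthest from control. Ero1L and Pfdn4, below the control with each vapour, are among those left out. Sil1 with formaldehyde, at 0.57, lies farthest to the right, and Hsp60B, Hsc70-2 and CG7387 among the farthest to the left.

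Likeness of pattern was measured as the Euclidean distance between log2 profiles centred on their own mean over the 4 arrays, among detected genes with at least 0.5 of the member's range. The profiles nearest to Hsc70-3 among 4942 genes were those of Mppe (distance 0.02), RhoGAP15B (0.03) and Elal (0.04). Mppe read 9.23, 9.56, 9.42 and 9.50 on the control, benzene, toluene and formaldehyde arrays. Nearest to Hsf among 7576 genes were CG42445, BCAS2 and CG8195, all at a distance of 0.01. With only 4 arrays, close profiles are common.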

How the data were processed

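The data are log2 values per probe set from 4 Affymetrix arrays, in 1 deposited table. The submitters' processing notes list Affymetrix Expression Console 1.1, MAS5 and RMA without saying what each did, so the normalization is not stated; near-equal quantiles have the form of RMA output, which removes overall differences and compresses dim ratios. Per the labels' protocols, 300 ng of total RNA was labelled with biotin by 3' amplification.

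Values were used as deposited. Names came from the platform annotation, and all 11 member probe sets matched RefSeq gene identifiers; symbols in the lists were matched directly or by 1 unambiguous synonym. With 1 array per group there was no test. The size rules were 1 and 0.25 log2 units. Counting was tested on simulated arrays with planted differences. Their noise was far smaller than the spread between the real arrays, so this tests the code, not the precision of the counts. Members and lists were chosen with earlier results of these data known. The 9 members were always named; of each list, the 3 detected genes farthest from control per exposure and any past 2-fold could be named. CG4461 was named as a neighbour of Hsp26, and Yp1, Yp2 and Yp3 as a check of the labels. Chromosome arm and gene order came from the RefSeq gene table (assembly Release 6 plus ISO1 MT), and no sequence was used here. Python 3.11.15, pandas 2.3.3 and numpy 2.4.6 were used. The number of arrays limits all precision. Alternatives were another scaling, filter, probe set rule, size or class membership.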

Additional observations from a re-analysis of the deposited data

How the results depend on the processing

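No paired analysis was possible because each group has 1 array. A value counted as kept when it moved by less than 0.1 log2 units. The count of members past 2-fold was 0 in each of the 6 comparisons under both other scalings, both other filters, the mean of probe sets and a size of 0.5. At a size of 0.25 it was 1 for benzene and 1 for formaldehyde minus control. Of 162 member differences recomputed, 160 were kept and 9 changed sign; both that moved were of l(2)efl with its probe sets averaged, dim one included (-0.01 for toluene minus benzene and -0.13 for formaldehyde minus toluene). Of 252 class values (medians and their differences), 242 were kept and 29 changed sign, among them values under quantile scaling, centring and on leaving out Hsp26, DnaJ-1 or Hsc70-3; moves of 0.1 or more came only from leaving out Hsc70-4 or Hsp60A, which leaves 2 constitutive genes. Without Hsc70-4, the constitutive medians for benzene, toluene and formaldehyde were 0.13, 0.074 and 0.086, and stress-induced minus constitutive was -0.16, -0.15 and -0.17. Without Hsp60A, benzene and formaldehyde gave 0.15 and 0.11, and -0.18 and -0.19. Of 237 list medians, 230 were kept and 6 changed sign. With no filter, the Turandot and other stress genes list was at 0.34 (toluene), neuron markers at -0.0010 and yolk markers at 0.13 (both benzene). With the filter at the 75th percentile, the first was at 2.26 (benzene) and 2.17 (toluene), and fat body markers at 0.44 (benzene) and 1.02 (formaldehyde); fewer genes were left in each list.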
